A study of Mus musculus with 9 samples.

Results

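The 42 genes described here encode proteins of the lysosome and of autophagy, and all 42 were found by gene symbol among the 20618 genes of an RNA-seq study of CD8+ T cells. CD8+ T cells are the cytotoxic lymphocytes that kill infected or tumour cells. Wild-type mouse CD8+ T cells had been kept for 24 h in 1 of 3 media: 2 mM inosine combined with hypoxanthine, 2 mM inosine alone, or 2 mM glucose. All media contained 10% dialyzed fetal bovine serum, from which small molecules have been removed, and about 80% of the cells were alive before live cells were sorted. Each medium is represented by 3 libraries, all from 1 batch per the labels, and the labels give no age or sex of the animals and no separate origin for the 3 libraries of a medium. The p-values therefore measure the spread between these libraries, which may be technical. The dose of hypoxanthine is printed in the labels without a usable unit and is not given here. Inosine is a nucleoside made of the purine base hypoxanthine and a ribose sugar. The comparisons ask how the expression of these genes differs when hypoxanthine is added to inosine, and when inosine replaces glucose.

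Lysosomes are acidic organelles in which hydrolases break down proteins, sugars, lipids and nucleic acids. The vacuolar ATPase (V-ATPase), a proton pump of many subunits, acidifies them. In autophagy a double membrane grows around cytoplasm under the control of the ULK1 and Beclin 1 complexes, proteins of the ATG8 family (LC3 and GABARAP) are attached to it, and the closed autophagosome fuses with the lysosome. Many of these genes are controlled by the related transcription factors TFEB and TFE3, which the kinase complex mTORC1, active on the lysosomal surface when nutrients are plentiful, keeps in the cytosol. CD8+ T cells also use lysosome-related organelles, the cytotoxic granules, to store their killing proteins.

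TFEB and TFE3 bind a palindrome known as the CLEAR element, whose core is TCACGTGA. The core was looked for in the 250 bases before each transcription start listed by RefSeq for GRCm38.p6 (the assembly also called mm10). Of the 42 genes, 35 had an entry. The core was present in 5 of the 35 (14.3%). It was present in 245 of all 27025 genes with a listed start (0.907%), and in 2.08% of the 8066 averaging 1 FPKM or more here. FPKM, the unit of the deposited values, counts fragments scaled to gene length and library size. The full palindrome GTCACGTGAC was present in 0 of the 35, against 0.270% of all genes with a listed start and 0.707% of those averaging 1 FPKM or more. The shorter E-box CACGTG, which lies inside the core, was present in 11 of the 35 (31.4%). It was present in 6.86% of all genes with a listed start and 10.3% of those averaging 1 FPKM or more. All 3 motifs read the same on both strands. The 5 promoters are shown because they carry the core and belong to genes that did not move together below. The core is in capitals, and each sequence runs 5′ to 3′ on the strand of its gene and ends 1 base before the start.
Mcoln1: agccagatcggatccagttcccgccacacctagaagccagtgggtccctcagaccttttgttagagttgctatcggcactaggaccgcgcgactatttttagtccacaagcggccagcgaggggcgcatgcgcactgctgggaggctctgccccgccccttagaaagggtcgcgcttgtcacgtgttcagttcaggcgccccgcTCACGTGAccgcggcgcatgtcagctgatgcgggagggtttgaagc
Ctsa: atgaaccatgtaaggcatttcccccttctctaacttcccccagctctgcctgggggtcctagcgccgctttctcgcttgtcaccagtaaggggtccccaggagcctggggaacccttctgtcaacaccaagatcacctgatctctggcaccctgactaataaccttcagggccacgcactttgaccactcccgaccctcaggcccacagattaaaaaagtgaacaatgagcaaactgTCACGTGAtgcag
Ctsd: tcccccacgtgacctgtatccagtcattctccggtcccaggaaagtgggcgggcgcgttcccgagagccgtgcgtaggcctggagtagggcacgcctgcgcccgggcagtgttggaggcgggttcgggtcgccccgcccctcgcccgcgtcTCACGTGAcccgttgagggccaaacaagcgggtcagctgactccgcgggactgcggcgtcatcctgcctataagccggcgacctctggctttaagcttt
Gla: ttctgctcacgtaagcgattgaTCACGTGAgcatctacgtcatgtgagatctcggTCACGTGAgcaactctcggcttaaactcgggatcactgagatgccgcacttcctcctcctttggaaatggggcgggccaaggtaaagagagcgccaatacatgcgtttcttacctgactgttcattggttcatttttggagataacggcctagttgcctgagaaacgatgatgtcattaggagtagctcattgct
Atp6v1a: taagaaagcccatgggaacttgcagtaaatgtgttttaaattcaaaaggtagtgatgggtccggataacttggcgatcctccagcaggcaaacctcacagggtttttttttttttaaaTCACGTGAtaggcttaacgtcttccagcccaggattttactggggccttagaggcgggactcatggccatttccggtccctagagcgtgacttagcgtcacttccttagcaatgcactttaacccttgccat
They lie at chr8:3500269-3500518 (plus strand, Mcoln1), chr2:164833523-164833772 (plus strand, Ctsa, the second of 2 listed starts), chr7:142387828-142388077 (minus strand, Ctsd), chrX:134601006-134601255 (minus strand, Gla) and chr16:44139260-44139509 (minus strand, Atp6v1a). Counting back from the start, with 1 as the base next to it, the core occupied bases 39 to 46 in Mcoln1, 6 to 13 in Ctsa, 92 to 99 in Ctsd and 125 to 132 in Atp6v1a. Gla held 2 copies, at bases 188 to 195 and 221 to 228. These positions depend on the start used. The GENCODE annotation begins Mcoln1 at 3500457, Ctsa at 164832873, Ctsd at 142388038 and Atp6v1a at 44139705. By those outer bounds the cores of these genes lie inside the gene, while those of Gla lie before it. These matches are a description of letters in this window, and no binding was measured.

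Recovered reads per library ranged from 34405638 to 44273565 with hypoxanthine, from 34899878 to 41679124 in inosine and from 30227023 to 49102631 in glucose. Genes of mitochondrial DNA took 5.84% of the FPKM in hypoxanthine replicate 2 and 6.5% in inosine replicate 2, and 4.03% to 4.82% in the other 7 libraries. Of the 42 genes, 24 had their lowest value with hypoxanthine in that replicate 2, and 25 their lowest value in inosine in inosine replicate 2. In each of these 2 libraries, 13 of the 42 had the highest value of the medium. The same counts were not made over all genes, so they are not read as a trait of the 42. The CD8 T cell markers Cd3d, Cd3e, Cd3g, Cd8a and Cd8b1 were all expressed, and all 5 rose with hypoxanthine in both comparisons. Cd8a, the CD8 alpha chain, had 168, 179 and 172 FPKM with hypoxanthine, against 69.7, 91.9 and 83 FPKM in inosine and 73.8, 82.6 and 77.2 FPKM in glucose. Macrophages are rich in lysosomes, so their markers were checked. Of 8 measured, 7 stayed under 1 FPKM in every library, and the defining genes Csf1r, Adgre1 and Lyz2 were between 0 and 0.0558 FPKM. The chemokine receptor gene Ccr2, which T cells can also express, had 5.93, 7.1 and 7.19 FPKM with hypoxanthine, against 17, 17.7 and 13.6 FPKM in inosine and 15.7, 13.7 and 16.6 FPKM in glucose, and Cd14 had 0.1, 0.108 and 0.104 FPKM with hypoxanthine, against 0.36, 0.389 and 0.526 FPKM in inosine and 0.24, 0.409 and 0.266 FPKM in glucose. Both fell with hypoxanthine in both comparisons. Summed over the 8 markers, the libraries held 6.06 to 7.38 FPKM with hypoxanthine, 14.1 to 18.1 FPKM in inosine and 14.2 to 16.9 FPKM in glucose. Of 3 dendritic cell markers measured, Zbtb46, a transcription factor gene of conventional dendritic cells, was called higher in both comparisons, with 1.54, 1.37 and 1.57 FPKM with hypoxanthine, against 0.61, 0.295 and 0.387 FPKM in inosine and 0.583, 0.298 and 0.438 FPKM in glucose. Flt3 was at most 0.0179 FPKM, and Xcr1 was listed at 0 in 6 of the 9 libraries. The sum of these 3 was 2.54, 1.37 and 1.58 FPKM with hypoxanthine, against 0.61, 0.295 and 0.387 FPKM in inosine and 2.83, 0.298 and 2.54 FPKM in glucose. Xcr1 made up most of this sum in glucose replicates 1 and 3, and part of it in hypoxanthine replicate 1. Of 3 neutrophil markers, which summed to at most 0.498 FPKM in any library, Ly6g was called lower against inosine. None of the 5 B cell, 3 NK cell, 3 CD4 T cell or 2 erythroid markers measured was called. The B cell sum was 1.32 to 1.84 FPKM. The NK cell sum of 8.48 to 11.7 FPKM was nearly all Eomes, a factor that CD8 T cells also make, and Cd4 was at most 0.0523 FPKM in any library. What part the marker genes that moved have in the results below was not tested.

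**Figure D1:**
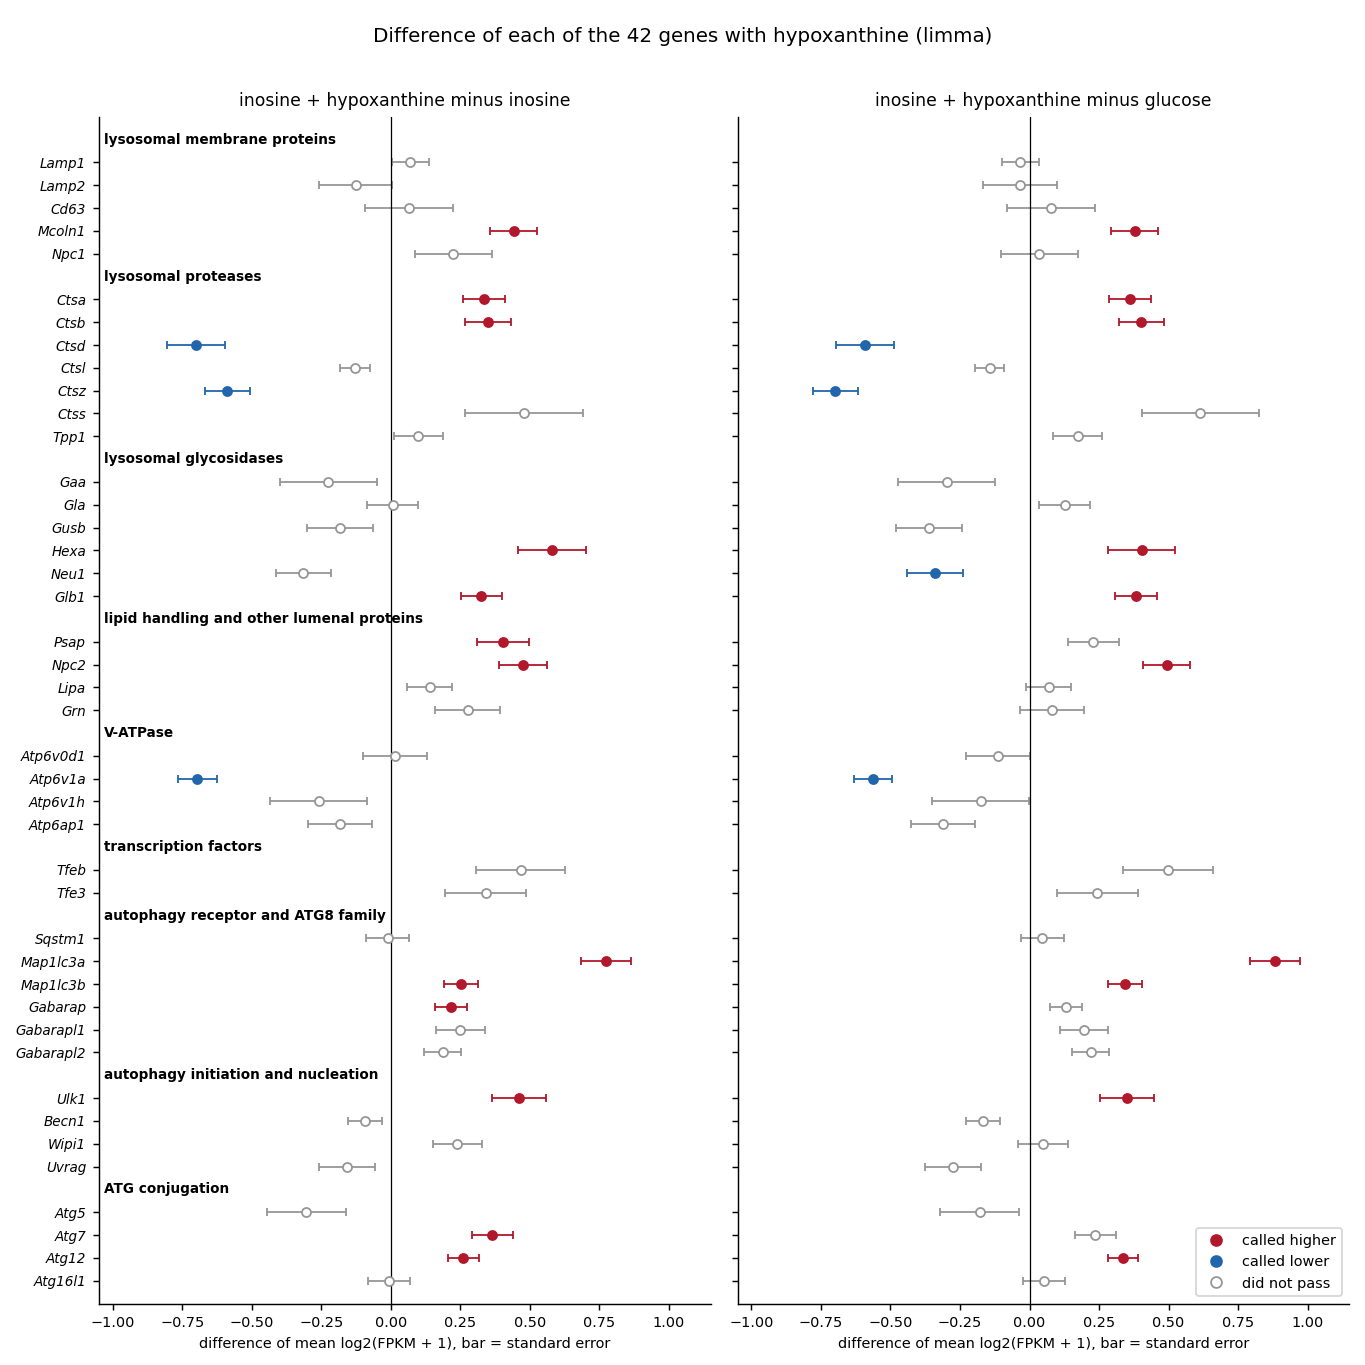
Difference of mean log2(FPKM + 1) for each of the 42 genes, by role, with inosine and hypoxanthine set against inosine (left) and against glucose (right). Bars are standard errors from limma and filled points passed the test; the largest rise is Map1lc3a and the largest falls are Ctsd, Atp6v1a and Ctsz in both panels.

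Adding hypoxanthine to inosine raised 13 of the 42 genes and lowered 3, and 26 did not pass. Across all genes tested, 11.7% were called higher and 9.59% lower in this comparison, and among genes averaging 1 FPKM or more 16.9% and 16%. A gene was called when its adjusted p from limma, with Benjamini-Hochberg adjustment over all genes, was under 0.05, on log2(FPKM + 1), a scale that understates the change of low genes. The median difference of the 42 genes was 0.16 on the log2 scale, against 0.002 for all genes and 0.02 for genes averaging 1 FPKM or more. The genes that rose were Mcoln1, Ctsa, Ctsb, Hexa, Glb1, Psap, Npc2, Map1lc3a, Map1lc3b, Gabarap, Ulk1, Atg7 and Atg12, and those that fell were Ctsd, Ctsz and Atp6v1a. Without hypoxanthine replicate 3 the rises numbered 8 in place of 13. Without hypoxanthine replicate 2 and inosine replicate 2 together, the libraries with the most mitochondrial signal, 14 rose and 4 fell. limma voom on recovered reads called 14 higher and 5 lower. On the log2(FPKM + 1) scale all 42 had a 95% interval between -1 and 1 against inosine, and 40 of the 42 did against glucose. The scale shrinks low genes: Map1lc3a was 2.34 times its level in inosine, and limma voom on recovered reads gave it a difference of 1.22.

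Set against glucose, inosine with hypoxanthine raised 10 of the 42 genes and lowered 4, where 10.8% of all genes were called higher and 9.55% lower, and 15% and 15.9% of genes averaging 1 FPKM or more. The median difference was 0.08 for the 42 genes. Both comparisons use the same 3 libraries with hypoxanthine, so their likeness is not a second observation. The rises were those named above other than Psap, Gabarap and Atg7, and the falls were Ctsd, Ctsz, Atp6v1a and Neu1. With a filter on genes averaging 1 FPKM or more, where the fit was made anew on fewer genes, the falls numbered 7.

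Between inosine and glucose, none of the 42 genes passed. Over all genes 1 was called higher and 1 lower, 0.00485% each. The smallest adjusted p among the 42 was 1, none had an unadjusted p under 0.05, and limma voom on recovered reads also called 0. The differences ran from -0.19 to 0.14 on the log2 scale with a median of -0.02, and every 95% interval lay between -0.50 and 0.62.

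**Figure D2:**
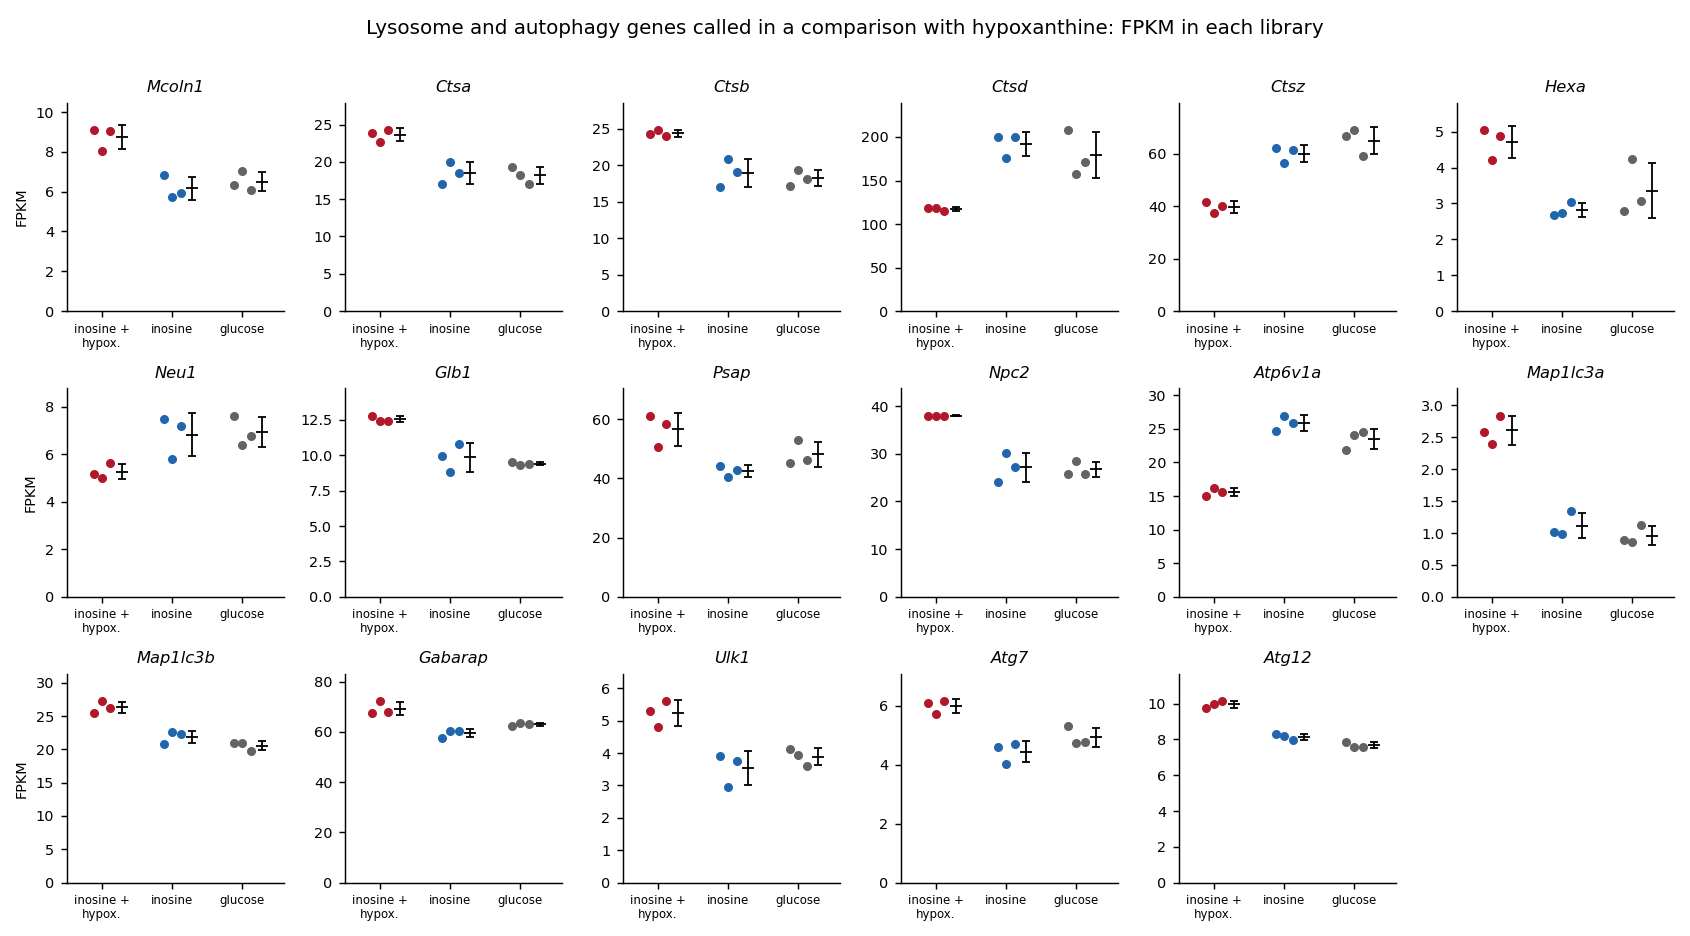
FPKM in each library (points) of the 17 genes called in a comparison with hypoxanthine, with the mean and its SD beside each medium. The libraries with hypoxanthine lie apart from both other media in all but Hexa and Psap, where 1 glucose library reaches into their range. The genes were picked by their calls in these same libraries, which favours such separation, so it is no further result.

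Among the 5 lysosomal membrane proteins, Mcoln1, the calcium channel TRPML1 of the lysosomal membrane, was the 1 gene that passed. It had 9.11, 8.04 and 9.05 FPKM with hypoxanthine, against 6.82, 5.75 and 5.95 FPKM in inosine and 6.35, 7.02 and 6.1 FPKM in glucose. Every library with hypoxanthine was above the other 6. The difference was 0.44 ± 0.08 against inosine (standard error; adjusted p = 0.00666) and 0.38 ± 0.08 against glucose (adjusted p = 0.014). Against glucose it did not pass without hypoxanthine replicate 1 (adjusted p = 0.0536), hypoxanthine replicate 3 (0.0587) or glucose replicate 3 (0.0563). Lamp1, an abundant glycoprotein that lines the lysosomal membrane, was the highest of this group. It had 58, 51.9 and 54.6 FPKM with hypoxanthine, against 52.5, 50.8 and 53 FPKM in inosine and 54.5, 59.5 and 54.4 FPKM in glucose, and the media overlapped. Its difference was 0.07 ± 0.07 against inosine (adjusted p = 0.524), with a 95% interval from -0.08 to 0.22. Lamp2, Cd63 and the cholesterol exporter gene Npc1 did not pass in either comparison.

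The 7 lysosomal proteases divided. Ctsa and Ctsb rose, Ctsd and Ctsz fell, and Ctsl, Ctss and Tpp1 did not pass. Ctsd encodes the aspartyl protease cathepsin D and was the highest of the 42 genes by FPKM. It had 119, 119 and 115 FPKM with hypoxanthine, against 201, 176 and 199.5 FPKM in inosine and 208, 157 and 171 FPKM in glucose. The 3 libraries with hypoxanthine were close together and below the other 6. The level with hypoxanthine was 0.612 times that in inosine, a log2 difference of -0.70 ± 0.11 (adjusted p = 0.00211), and the difference was -0.59 ± 0.11 against glucose (adjusted p = 0.00487). Against glucose Ctsd fell short in limma with replicate number added to the fit and only those 2 media compared (adjusted p = 0.0519). Ctsz encodes cathepsin Z, a carboxypeptidase. It had 41.6, 37.2 and 39.98 FPKM with hypoxanthine, against 62.2, 56.3 and 61.5 FPKM in inosine and 66.8, 69 and 59 FPKM in glucose, again with no overlap. Its difference was -0.59 ± 0.08 against inosine (adjusted p = 0.00133) and -0.70 ± 0.08 against glucose (adjusted p = 0.000612).

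In the other direction, Ctsb, the cysteine protease cathepsin B, had 24.3, 24.8 and 23.9 FPKM with hypoxanthine, against 17, 20.8 and 19 FPKM in inosine and 17.1, 19.4 and 18.1 FPKM in glucose. Ctsa, the protective protein that keeps beta-galactosidase and neuraminidase stable in the lysosome, had 23.9, 22.7 and 24.3 FPKM with hypoxanthine, against 17.1, 19.99 and 18.6 FPKM in inosine and 19.3, 18.2 and 17.1 FPKM in glucose. For both genes all 3 libraries with hypoxanthine were above the other 6. Against inosine the difference was 0.35 ± 0.08 for Ctsb (adjusted p = 0.0164) and 0.34 ± 0.08 for Ctsa (adjusted p = 0.0138). Against glucose it was 0.40 ± 0.08 for Ctsb (adjusted p = 0.0091) and 0.36 ± 0.08 for Ctsa (adjusted p = 0.0103). The calls against inosine were near the threshold: Ctsa did not pass without hypoxanthine replicate 3 (adjusted p = 0.0593), and Ctsb did not pass without hypoxanthine replicate 1 (0.0511), hypoxanthine replicate 3 (0.0512) or inosine replicate 3 (0.0507). Ctss, cathepsin S, known for cutting the invariant chain in antigen-presenting cells, had 23.2, 28 and 25.3 FPKM with hypoxanthine, against 13.5, 23.9 and 18 FPKM in inosine and 12.7, 20.7 and 16.3 FPKM in glucose. Its libraries varied widely within each medium, with replicate 1 the lowest and replicate 2 the highest in all 3 media, and those of inosine reached into the range with hypoxanthine. Its differences of 0.48 ± 0.21 and 0.61 ± 0.21 against inosine and glucose did not pass (adjusted p = 0.155 and 0.0743). Ctss passed without inosine replicate 2 (adjusted p = 0.0455 against inosine and 0.0378 against glucose), and against glucose also without inosine replicate 1 (0.0428) or glucose replicate 2 (0.0482), with limma voom on recovered reads (0.0368) and with the filter at a mean of 1 FPKM (0.0335).

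Of the 6 lysosomal glycosidases, Hexa and Glb1 rose against inosine and none fell. Glb1 encodes beta-galactosidase, which removes terminal galactose from glycolipids and glycoproteins. It had 12.8, 12.5 and 12.4 FPKM with hypoxanthine, against 9.93, 8.82 and 10.8 FPKM in inosine and 9.52, 9.3 and 9.39 FPKM in glucose. The libraries with hypoxanthine were all above the other 6. The difference was 0.33 ± 0.07 against inosine (adjusted p = 0.0147; 0.0542 without hypoxanthine replicate 1) and 0.38 ± 0.07 against glucose (adjusted p = 0.00729). Hexa encodes the alpha subunit of beta-hexosaminidase, which degrades GM2 ganglioside. It had 5.05, 4.2 and 4.89 FPKM with hypoxanthine, against 2.67, 2.75 and 3.04 FPKM in inosine and 2.77, 4.22 and 3.07 FPKM in glucose. Glucose replicate 2 reached the lowest library with hypoxanthine, while inosine did not overlap. Hexa was 1.67 times its level in inosine, a difference of 0.58 ± 0.12 (adjusted p = 0.0101). Against glucose its difference of 0.40 ± 0.12 (adjusted p = 0.0471) was lost when any 1 library other than glucose replicate 2 was left out (adjusted p from 0.0544 to 0.145).

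Neu1, the lysosomal neuraminidase that removes sialic acid, had 5.16, 5.01 and 5.63 FPKM with hypoxanthine, against 7.48, 5.79 and 7.2 FPKM in inosine and 7.63, 6.4 and 6.79 FPKM in glucose. All 3 libraries with hypoxanthine were below the other 6. It fell against glucose, by a difference of -0.34 ± 0.10 (adjusted p = 0.043), but passed in only 2 of 9 fits without 1 library, those without inosine replicate 1 or 2 (0.0545 to 0.127 in the other 7). Against inosine the difference was -0.31 ± 0.10 (adjusted p = 0.0559), which was near the threshold: it passed without inosine replicate 2 (0.0123), with limma voom (0.0449), the filter at a mean of 1 FPKM (0.0257) or median-of-ratios scaling (0.0404), and without the 2 libraries of highest mitochondrial share (0.0345). Gusb, beta-glucuronidase, was the highest of the group. It had 26.8, 22.6 and 19.4 FPKM with hypoxanthine, against 29.3, 23.5 and 25.4 FPKM in inosine and 29.4, 30.2 and 28.9 FPKM in glucose, with a difference of -0.18 ± 0.12 against inosine (adjusted p = 0.348) and -0.36 ± 0.12 against glucose (adjusted p = 0.0634; 0.0254 without hypoxanthine replicate 1 and 0.0244 with the filter at a mean of 1 FPKM). The FPKM of Gusb did not follow its recovered reads between libraries: the SD of their log2 ratio was 0.188, where the median of the 42 genes was 0.0041. On recovered reads, limma voom gave Gusb a difference of 0.01 against inosine (adjusted p = 0.951) and -0.10 against glucose (adjusted p = 0.566), so its lower FPKM was not seen in the reads against inosine and was smaller in them against glucose. Gla, alpha-galactosidase A, whose promoter holds 2 copies of the core, had 3.27, 4.12 and 3.58 FPKM with hypoxanthine, against 3.2, 3.94 and 3.76 FPKM in inosine and 3.22, 3.07 and 3.48 FPKM in glucose, and Gaa, acid alpha-glucosidase, did not pass.

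Among the 4 lumenal proteins of lipid handling and related function, Psap and Npc2 rose against inosine. Npc2 encodes the small protein that carries cholesterol inside the lysosome. It had 38, 37.9 and 38 FPKM with hypoxanthine, against 24, 30.2 and 27.2 FPKM in inosine and 25.9, 28.5 and 25.9 FPKM in glucose. The libraries with hypoxanthine were almost identical and above the other 6. The difference was 0.48 ± 0.09 against inosine (adjusted p = 0.005) and 0.49 ± 0.09 against glucose (adjusted p = 0.00448). Psap encodes prosaposin, the precursor of the saposins that assist glycolipid hydrolases. It had 61.2, 50.5 and 58.3 FPKM with hypoxanthine, against 44.2, 40.4 and 42.9 FPKM in inosine and 45.2, 53.1 and 46.1 FPKM in glucose. Inosine did not overlap with hypoxanthine, and glucose did. The difference was 0.40 ± 0.09 against inosine (adjusted p = 0.0149), which did not pass without hypoxanthine replicate 1 (0.0583) or 3 (0.0626), and 0.23 ± 0.09 against glucose (adjusted p = 0.121). Lipa, acid lipase, and Grn, progranulin, did not pass.

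None of the 4 V-ATPase genes rose, and 1 fell. Atp6v1a, the catalytic A subunit in the cytosolic V1 part of the pump, had 15, 16.2 and 15.6 FPKM with hypoxanthine, against 24.7, 27 and 25.9 FPKM in inosine and 21.8, 24.1 and 24.6 FPKM in glucose. The 3 libraries with hypoxanthine were well below the other 6. Its level was 0.603 times that in inosine, a difference of -0.70 ± 0.07 (adjusted p = 0.000267), and the difference was -0.56 ± 0.07 against glucose (adjusted p = 0.000769). Atp6ap1, an accessory subunit, was the highest of the 4 by FPKM. It had 23.9, 23 and 26 FPKM with hypoxanthine, against 29, 28.2 and 26 FPKM in inosine and 36.6, 29.3 and 26.1 FPKM in glucose. The difference was -0.18 ± 0.12 against inosine (adjusted p = 0.33) and -0.31 ± 0.12 against glucose (adjusted p = 0.0932; 0.0438 without glucose replicate 3). Atp6v0d1 of the membrane part and Atp6v1h of the V1 part did not pass, though limma voom on recovered reads called Atp6v1h lower against inosine (adjusted p = 0.0258). FPKM and recovered reads of Atp6v1h and Atp6ap1 parted between libraries, with SDs of 0.154 and 0.122 on the log2 scale.

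Neither transcription factor passed, and Tfeb was near the threshold. Tfeb had 4.36, 3.12 and 3.97 FPKM with hypoxanthine, against 3, 1.67 and 2.88 FPKM in inosine and 2.41, 2.15 and 2.62 FPKM in glucose. Every library with hypoxanthine was above the other 6, but the spread was wide. The difference was 0.47 ± 0.16 against inosine (adjusted p = 0.0745) and 0.50 ± 0.16 against glucose (adjusted p = 0.061). With limma voom on recovered reads it passed in both (adjusted p = 0.0427 against inosine and 0.0416 against glucose), as it did with the filter at a mean of 1 FPKM (0.0255 against inosine and 0.0197 against glucose) and without the 2 libraries of highest mitochondrial share (0.0305 against inosine and 0.00496 against glucose). Against glucose it also passed without inosine replicate 2 (0.0118) and with only those 2 media compared (0.0278). Tfe3 had 8.91, 6.68 and 8.02 FPKM with hypoxanthine, against 7.01, 4.55 and 6.59 FPKM in inosine and 6.76, 6.51 and 6.1 FPKM in glucose. Its libraries overlapped, with a difference of 0.34 ± 0.15 against inosine (adjusted p = 0.14) and 0.24 ± 0.15 against glucose (adjusted p = 0.298; 0.0214 without the 2 libraries of highest mitochondrial share). In both genes replicate 2 was the lowest with hypoxanthine and the lowest in inosine. These are transcript levels, whereas TFEB and TFE3 are mainly controlled by phosphorylation and by where they are in the cell, which was not measured.

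All 5 genes of the ATG8 family had a higher mean with hypoxanthine than in either other medium. The share of all genes with their highest mean in this medium was not counted. Of the 5, 3 passed against inosine and 2 against glucose, where 16.9% and 15% of genes averaging 1 FPKM or more were called higher. Sqstm1, placed in the same role group, had a mean of 54.2 FPKM with hypoxanthine and 54.7 FPKM in inosine. Map1lc3a, LC3A, showed the largest rise of the 42 genes and was by far the lowest of the family by FPKM. It had 2.59, 2.39 and 2.84 FPKM with hypoxanthine, against 1.02, 0.979 and 1.34 FPKM in inosine and 0.888, 0.861 and 1.13 FPKM in glucose. Every library with hypoxanthine was above the other 6. The level was 2.34 times that in inosine and 2.72 times that in glucose, with differences of 0.77 ± 0.09 (adjusted p = 0.000639) and 0.88 ± 0.09 (adjusted p = 0.000346). Its recovered reads were at least 38 in every library, and limma voom gave a difference of 1.22 against inosine and 1.40 against glucose.

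Map1lc3b, LC3B, the form used most as a marker of autophagosomes, had 25.5, 27.2 and 26.1 FPKM with hypoxanthine, against 20.9, 22.6 and 22.2 FPKM in inosine and 20.9, 20.9 and 19.7 FPKM in glucose. There was no overlap with hypoxanthine. The difference was 0.25 ± 0.06 against inosine (adjusted p = 0.0182; 0.0531 and 0.061 without hypoxanthine replicate 2 or 3) and 0.34 ± 0.06 against glucose (adjusted p = 0.00488). Gabarap, the highest of the family by FPKM, had 67.7, 72.2 and 67.9 FPKM with hypoxanthine, against 57.6, 60.4 and 60.4 FPKM in inosine and 62.5, 63.6 and 63.2 FPKM in glucose. Its libraries with hypoxanthine were above the other 6 by a small margin. The difference was 0.22 ± 0.06 against inosine (adjusted p = 0.0261) and 0.13 ± 0.06 against glucose (adjusted p = 0.144). The call against inosine was lost without any 1 of the 3 libraries with hypoxanthine, inosine replicate 1 or inosine replicate 3 (adjusted p from 0.0554 to 0.0684), and under median-of-ratios scaling (0.0834). Gabarapl1 had 48.9, 44 and 50.4 FPKM with hypoxanthine, against 43.7, 36.1 and 40.3 FPKM in inosine and 43.7, 39.7 and 41.1 FPKM in glucose, and its difference against inosine was 0.25 ± 0.09 (adjusted p = 0.0757; 0.0395 without inosine replicate 1). Gabarapl2 had 51.9, 54 and 50.4 FPKM with hypoxanthine, against 43.3, 48.6 and 45.3 FPKM in inosine and 47.1, 43.6 and 43.2 FPKM in glucose, with a difference of 0.19 ± 0.07 against inosine (adjusted p = 0.0876; 0.0442 without inosine replicate 2) and 0.22 ± 0.07 against glucose (adjusted p = 0.0509). The last passed without inosine replicate 1 (0.0425), inosine replicate 2 (0.0306) or glucose replicate 1 (0.0492). Sqstm1, the receptor p62 that brings ubiquitinated cargo to LC3, had 56.8, 52.5 and 53.3 FPKM with hypoxanthine, against 54.9, 50.3 and 58.9 FPKM in inosine and 55.8, 51.6 and 50.2 FPKM in glucose. The media overlapped, and the difference against inosine was -0.01 ± 0.08 (adjusted p = 0.967).

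Of the 4 genes of initiation and nucleation, Ulk1 rose. Ulk1 encodes the kinase that starts autophagosome formation. It had 5.31, 4.81 and 5.6 FPKM with hypoxanthine, against 3.92, 2.95 and 3.76 FPKM in inosine and 4.13, 3.94 and 3.61 FPKM in glucose. Every library with hypoxanthine was above the other 6. The difference was 0.46 ± 0.10 against inosine (adjusted p = 0.0102) and 0.35 ± 0.10 against glucose (adjusted p = 0.034). Against glucose it was lost without hypoxanthine replicate 1 or 3 or any 1 glucose library (adjusted p from 0.0538 to 0.123). Becn1, Beclin 1, part of the lipid kinase complex, had 48, 44.9 and 48 FPKM with hypoxanthine, against 50.8, 49.6 and 49.9 FPKM in inosine and 50.6, 55.4 and 52.4 FPKM in glucose, with a difference of -0.09 ± 0.06 against inosine (adjusted p = 0.353) and -0.17 ± 0.06 against glucose (adjusted p = 0.0885). Under median-of-ratios scaling Becn1 was called lower against glucose (adjusted p = 0.0446). Uvrag, a Beclin 1 partner, and Wipi1, which binds the lipid this kinase makes, did not pass, although Uvrag passed against glucose without inosine replicate 2 (0.0393). Wipi1, with Ctsl, was one of the 2 genes with a mean under 1 FPKM.

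In the conjugation machinery that attaches ATG8 proteins to membrane, Atg7 and Atg12 rose against inosine. Atg12 encodes a ubiquitin-like protein that is joined to ATG5. It had 9.74, 10.01 and 10.1 FPKM with hypoxanthine, against 8.29, 8.17 and 7.98 FPKM in inosine and 7.86, 7.59 and 7.61 FPKM in glucose. The libraries with hypoxanthine were above the other 6, and each medium was tight. The difference was 0.26 ± 0.05 against inosine (adjusted p = 0.01) and 0.34 ± 0.05 against glucose (adjusted p = 0.00328). Atg7 encodes the E1-like enzyme that activates ATG12 and the ATG8 proteins. It had 6.09, 5.71 and 6.15 FPKM with hypoxanthine, against 4.58, 4.02 and 4.69 FPKM in inosine and 5.3, 4.73 and 4.75 FPKM in glucose, with no overlap. The difference was 0.36 ± 0.07 against inosine (adjusted p = 0.00859) and 0.24 ± 0.07 against glucose (adjusted p = 0.0533), where it passed without inosine replicate 2 (0.0299) or glucose replicate 1 (0.0436). Atg5, the partner of ATG12, was the highest of this group. It had 10.1, 12.4 and 10.3 FPKM with hypoxanthine, against 11.4, 16.1 and 13.9 FPKM in inosine and 10.6, 13.1 and 13.9 FPKM in glucose, and its difference of -0.30 ± 0.14 against inosine did not pass (adjusted p = 0.178). Atg16l1 did not pass.

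The genes with the CLEAR core in the promoters shown above did not move together. Mcoln1 and Ctsa rose with hypoxanthine, Ctsd and Atp6v1a fell, and Gla did not pass in either comparison. Summed over the 42 genes, the libraries held 907 to 936 FPKM with hypoxanthine, 928 to 969 FPKM in inosine and 931 to 992 FPKM in glucose. Without Ctsd the sums were 788 to 817 FPKM with hypoxanthine, 752 to 770 FPKM in inosine and 760 to 800 FPKM in glucose. In bulk RNA, fewer cells that express a gene and less RNA of it per cell cannot be told apart. Within a medium, the SD of log2(FPKM + 1) had a median over the 42 genes of 0.090 with hypoxanthine, 0.134 in inosine and 0.081 in glucose.

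**Figure D3:**
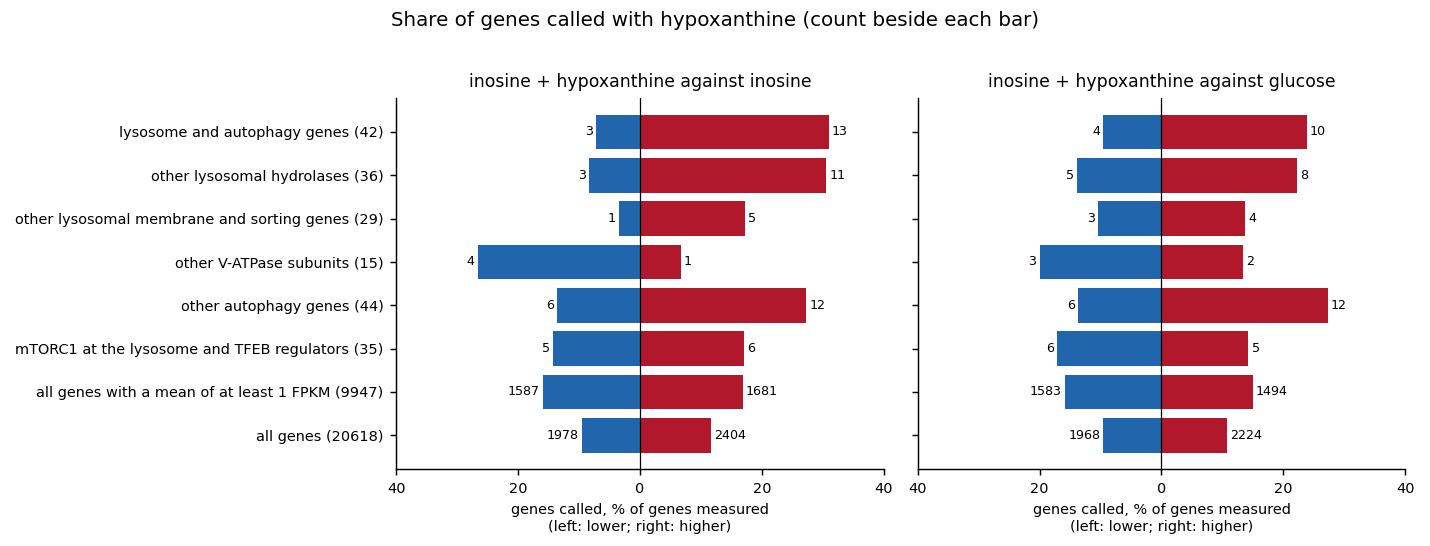
Share of genes called higher (right of 0) or lower (left of 0) in the 42 genes, in 5 further lists of the pathway and among all genes, with the count at each bar. With inosine and hypoxanthine set against inosine, 13 of 42 were higher and 3 lower, where all genes averaging 1 FPKM or more had 16.9% and 16%.

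A further 159 measured genes of the same pathways, in 5 lists, were read against the same background. Together 35 rose (22%) and 19 fell (11.9%) against inosine, and 31 rose (19.5%) and 23 fell (14.5%) against glucose. Among genes averaging 1 FPKM or more, 16.9% rose and 16% fell against inosine, and 15% rose and 15.9% fell against glucose. Across all genes tested these shares were 11.7% and 9.59% against inosine, and 10.8% and 9.55% against glucose. The median difference against inosine was 0.05. Among 36 other lysosomal hydrolases, 11 rose (30.6%) and 3 fell (8.33%) against inosine, and 8 rose (22.2%) and 5 fell (13.9%) against glucose. The rises numbered 7 against inosine without inosine replicate 1 or 3 or hypoxanthine replicate 1. Against glucose they numbered 4 without glucose replicate 3 or hypoxanthine replicate 1 and 5 without hypoxanthine replicate 3, and the falls numbered 2 without glucose replicate 3 or hypoxanthine replicate 3 and 3 without glucose replicate 2 or hypoxanthine replicate 1 or 2. Ctsw, cathepsin W, a protease found mainly in cytotoxic lymphocytes, had 82.1, 82.1 and 87.8 FPKM with hypoxanthine, against 35.5, 38.5 and 35.1 FPKM in inosine and 42, 35.7 and 34.1 FPKM in glucose. Its difference was 1.19 ± 0.09 against inosine (adjusted p = 6.46e-05). Acp5, tartrate-resistant acid phosphatase, moved the other way with 6.99, 5.87 and 6.49 FPKM with hypoxanthine, against 14, 14.5 and 16.3 FPKM in inosine and 15.1, 14.9 and 14.6 FPKM in glucose. Its difference was -1.09 ± 0.08 (adjusted p = 6.69e-05), and for both genes no library with hypoxanthine overlapped the others. Man2b1, the lysosomal alpha-mannosidase and the highest of the list after Ctsw, had 21.3, 18.6 and 21.6 FPKM with hypoxanthine, against 16.7, 15.5 and 17.5 FPKM in inosine and 18, 20.8 and 17.3 FPKM in glucose. Its difference of 0.29 ± 0.09 against inosine did not pass (adjusted p = 0.0529).

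Among 29 other genes of the lysosomal membrane and of sorting to it, 5 rose (17.2%) and 1 fell (3.45%) against inosine. Against glucose 4 rose (13.8%) and 3 fell (10.3%). The shares that rose were close to those among genes averaging 1 FPKM or more. The rises against inosine numbered 3 without glucose replicate 3 or hypoxanthine replicate 1 or 3, and the falls numbered 2 without inosine replicate 1. The falls against glucose numbered 1 without glucose replicate 2 or hypoxanthine replicate 1 or 3. Gnptab encodes the enzyme that puts the mannose 6-phosphate tag on newly made hydrolases. It had 44.4, 41.4 and 46.6 FPKM with hypoxanthine, against 24.9, 20.9 and 23.3 FPKM in inosine and 22.7, 26.4 and 25.1 FPKM in glucose, a difference of 0.91 ± 0.09 against inosine (adjusted p = 0.000237) and 0.81 ± 0.09 against glucose (adjusted p = 0.000449). The 2 highest of the list by FPKM did not pass. Laptm5, a lysosomal membrane protein of blood cells, had 249.5, 192 and 240.05 FPKM with hypoxanthine, against 285, 200.4 and 265 FPKM in inosine and 302, 329.9 and 283 FPKM in glucose, with a difference of -0.13 ± 0.15 against inosine (adjusted p = 0.6). M6pr, a receptor for the mannose 6-phosphate tag, had 72.6, 65.3 and 68.4 FPKM with hypoxanthine, against 72.7, 65.6 and 69.1 FPKM in inosine and 75.5, 72.5 and 74.1 FPKM in glucose, with a difference of -0.01 ± 0.07 against inosine (adjusted p = 0.979). Slc29a3 encodes ENT3, the transporter that moves nucleosides across the lysosomal membrane. It had 4.21, 3.99 and 4.77 FPKM with hypoxanthine, against 2.56, 2.07 and 2.08 FPKM in inosine and 2.11, 2.54 and 2.3 FPKM in glucose, a difference of 0.72 ± 0.09 against inosine (adjusted p = 0.00088).

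**Figure D4:**
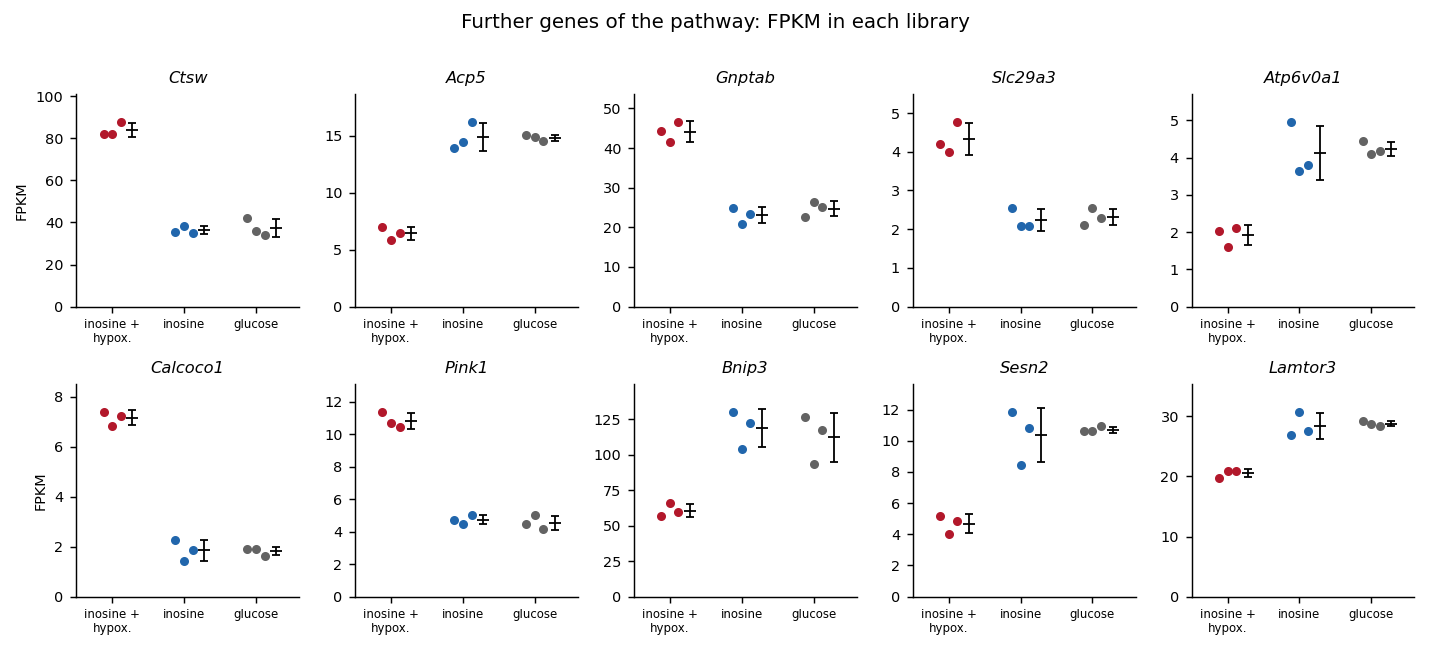
FPKM in each library (points) of 10 further pathway genes, with the mean and its SD beside each medium. Ctsw, Gnptab, Slc29a3, Calcoco1 and Pink1 lie higher with hypoxanthine and Acp5, Atp6v0a1, Bnip3, Sesn2 and Lamtor3 lower, with no library in common between hypoxanthine and the other media. All 10 were called in these same libraries, which favours such separation, so it is no further result. Highly expressed genes of these lists that did not pass, such as Laptm5, M6pr and Rab7, are not drawn.

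Most other subunit genes of the pump did not pass. Of the 15 other V-ATPase subunit genes, 1 rose (6.67%) and 4 fell (26.7%) against inosine, and 2 rose (13.3%) and 3 fell (20%) against glucose. Without hypoxanthine replicate 1 or 3 the falls numbered 1 in both comparisons, without inosine replicate 2 they numbered 2 against inosine, and without inosine replicate 1 they numbered 5 against glucose. The rises against inosine numbered 2 without inosine replicate 2. Against glucose they numbered 1 without any 1 glucose library or hypoxanthine replicate 2 or 3. Atp6v0a1, an a subunit of the membrane part, had 2.04, 1.61 and 2.1 FPKM with hypoxanthine, against 4.96, 3.64 and 3.8 FPKM in inosine and 4.44, 4.09 and 4.17 FPKM in glucose. Its difference was -0.81 ± 0.11 against inosine (adjusted p = 0.00122) and -0.85 ± 0.11 against glucose (adjusted p = 0.00102), and it passed without each library in turn. The riser against inosine, Atp6v0d2, stayed between 0.0157 and 0.228 FPKM. Atp6v1f and Atp6v0e, the highest of these genes by FPKM, did not pass. Atp6v1f had 109, 126 and 114 FPKM with hypoxanthine, against 109, 127 and 118 FPKM in inosine and 114, 114 and 111 FPKM in glucose, and its difference against inosine was -0.02 ± 0.08 (adjusted p = 0.9). Atp6v0e, of the membrane part, had 78.2, 99.7 and 85.2 FPKM with hypoxanthine, against 93.8, 111 and 93.5 FPKM in inosine and 94.7, 84.1 and 97.7 FPKM in glucose, with a difference of -0.18 ± 0.11 (adjusted p = 0.31).

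Of 44 other autophagy genes, 12 rose (27.3%) and 6 fell (13.6%) in each comparison. The rises against inosine numbered 8 to 14 and those against glucose 9 to 13 over the fits without 1 library. Calcoco1, a receptor for autophagy of the endoplasmic reticulum, had 7.4, 6.82 and 7.24 FPKM with hypoxanthine, against 2.28, 1.41 and 1.85 FPKM in inosine and 1.91, 1.92 and 1.64 FPKM in glucose. Its level was 3.88 times that in inosine, a difference of 1.53 ± 0.11 (adjusted p = 6.02e-05). Pink1, the kinase that marks damaged mitochondria, had 11.4, 10.7 and 10.4 FPKM with hypoxanthine, against 4.74, 4.48 and 4.99 FPKM in inosine and 4.45, 5.02 and 4.17 FPKM in glucose, a difference of 1.05 ± 0.08 against inosine (adjusted p = 6.69e-05). Bnip3, a mitophagy receptor known as a target of the hypoxia factor HIF-1, was the highest of the list by FPKM. It had 56.6, 65.7 and 59.3 FPKM with hypoxanthine, against 130.2, 104 and 122 FPKM in inosine and 126, 93.1 and 117 FPKM in glucose, a difference of -0.96 ± 0.13 against inosine (adjusted p = 0.00119). Rab7, the small GTPase of late endosomes and lysosomes, was next by FPKM and had 72.8, 70.4 and 69.2 FPKM with hypoxanthine, against 77.6, 77 and 78.7 FPKM in inosine and 76.3, 76.1 and 77.5 FPKM in glucose. Its difference of -0.13 ± 0.05 against inosine did not pass (adjusted p = 0.117). The other 4 genes of the ULK complex were named after their values were seen, so their count is not a test of the complex. All 4 were called higher in both comparisons, where 16.9% and 15% of genes averaging 1 FPKM or more were. Against inosine the difference was 0.63 ± 0.12 for the kinase gene Ulk2 (adjusted p = 0.00637), 0.50 ± 0.08 for Atg13 (adjusted p = 0.00305), 0.32 ± 0.07 for Atg101 (adjusted p = 0.0141) and 0.37 ± 0.09 for Rb1cc1, the scaffold FIP200 (adjusted p = 0.0184). Rb1cc1 did not pass against inosine without inosine replicate 3 or hypoxanthine replicate 2 or 3, with an adjusted p of up to 0.0633. Ulk2 did not pass against glucose without glucose replicate 1 or hypoxanthine replicate 1 or 3, with one of up to 0.0724.

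Of 35 measured genes of mTORC1 at the lysosome and its regulators, 6 rose (17.1%) and 5 fell (14.3%) against inosine. Against glucose 5 rose (14.3%) and 6 fell (17.1%). These shares were close to those among genes averaging 1 FPKM or more. These counts fell to between 2 and 3 without certain single libraries. Against inosine the rises numbered 3 without glucose replicate 3, inosine replicate 3 or hypoxanthine replicate 1 or 2, and the falls 2 without inosine replicate 3 or hypoxanthine replicate 3 and 3 without hypoxanthine replicate 1. Against glucose the rises numbered 3 without glucose replicate 2 or 3 or any 1 library with hypoxanthine, and the falls 2 without glucose replicate 3 or hypoxanthine replicate 3 and 3 without glucose replicate 1 or 2 or hypoxanthine replicate 2. Sesn2, sestrin 2, a leucine sensor that restrains mTORC1, had 5.16, 4.02 and 4.88 FPKM with hypoxanthine, against 11.9, 8.48 and 10.8 FPKM in inosine and 10.6, 10.6 and 10.9 FPKM in glucose. Its difference was -0.996 ± 0.12 against inosine (adjusted p = 0.000725). Lamtor3, a subunit of the Ragulator scaffold that holds mTORC1 at the lysosome, had 19.8, 20.9 and 21 FPKM with hypoxanthine, against 26.9, 30.8 and 27.6 FPKM in inosine and 29.2, 28.7 and 28.5 FPKM in glucose. The difference was -0.45 ± 0.07 against inosine (adjusted p = 0.00199) and -0.47 ± 0.07 against glucose (adjusted p = 0.00167). Lamtor5 and Lamtor2, Ragulator subunit genes and the highest of the list by FPKM, did not pass. Lamtor5 had 43.5, 53.7 and 46.1 FPKM with hypoxanthine, against 55.8, 71.2 and 56.4 FPKM in inosine and 58.2, 57 and 57.8 FPKM in glucose, with a difference of -0.35 ± 0.11 against inosine (adjusted p = 0.0548). Lamtor2 had 47.2, 52.8 and 49.1 FPKM with hypoxanthine, against 42.2, 48.8 and 39.1 FPKM in inosine and 46, 48.1 and 47.3 FPKM in glucose, with a difference of 0.20 ± 0.09 against inosine (adjusted p = 0.149). Sesn2 and Lamtor3 passed without each library in turn.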

How the data were processed

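RNA was sequenced paired-end from 9 libraries, 3 per medium. The submitters' processing notes name mm10 as genome build and, as tools, DESeq2 1.38.3, Subread 2.0.1, HISAT2 and featureCounts. Strand, and how reads shared between near-identical copies or overlapping genes were counted, are not given in the sources used here. The authors deposited FPKM for every gene in every library, scaled for gene length and library size. They also deposited a signal per medium, the mean of its normalized read counts. The authors' own log2 fold changes and p-values in these tables were not used here.

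All 20618 genes of the 9 libraries entered 1 fit in limma 3.58.1 (R 4.3.3) with its trend and robust options, on log2(FPKM + 1), unfiltered. Each medium had its own mean, which left 6 residual degrees of freedom. FPKM allowed no count model as the main test. The limma fit was first run on simulated counts, made with the same spread setting for every gene. That run does not measure how the fit performs on these libraries. Whole reads were recovered for 20520 genes (99.52% of genes, 98.13% of FPKM) as the whole numbers that give both of the authors' mean signals of a medium, within 0.0005 and at most 0.05 of a whole number. They gave depth and the limma voom alternative. Other settings tried were a pseudocount of 0.1, a filter at a mean of 1 FPKM, median-of-ratios scaling, no trend or robust setting, only the 2 media compared, a replicate block and leaving out each library. The fit without hypoxanthine replicate 2 and inosine replicate 2 together was chosen after seeing the data. Promoter sequences are from RefSeq (GRCm38.p6).

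The members and lists were chosen with earlier results of these data known. Genes named with values are the called members, the highest member of each role by mean FPKM and, of each further list, the 2 with the smallest adjusted p with hypoxanthine against inosine and the 2 of the highest mean. The cell type markers and Ctss, Tfeb, Gabarapl1, Gabarapl2, Gla and Sqstm1 were given values besides, and other exceptions are named in the text. Gene intervals and p-values cover these libraries only.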

Additional observations from a re-analysis of the deposited data

How the results depend on the processing

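No called gene changed sign under any setting. Of 2262 values of the 42 genes under other settings, 2146 kept their side of the threshold, 50 fell short of it, 66 came to pass it and 0 reversed as calls, while 74 had the other sign without being called. Of 16 genes called against inosine and 14 called against glucose, 10 in each comparison passed without each library in turn. Leaving out 1 library gave 2757 to 4487 calls over all genes with hypoxanthine against inosine, 2677 to 4879 against glucose, and 1 to 7 for inosine against glucose. For the 42 genes it gave 8 to 15 rises and 3 to 4 falls against inosine, and 7 to 13 rises and 3 to 5 falls against glucose. The falls against inosine numbered 5 with limma voom. Those against glucose numbered 7 with the filter at a mean of 1 FPKM, where the fit was made anew on fewer genes. For inosine against glucose the calls over all genes numbered 0 with that filter, with no trend or robust setting, with only the 2 media compared and with limma voom, and 1 without the 2 libraries of highest mitochondrial share. The cause was not tested. The labels do not say whether equal replicate numbers pair the libraries, and the main fit did not pair them. Correlations of deviations between same-numbered libraries were 0.411, 0.635 and 0.018 with hypoxanthine against inosine. They were 0.085, -0.201 and -0.063 with hypoxanthine against glucose, and 0.404, 0.264 and -0.27 for inosine against glucose. Not every library correlated best with its own number, and these mixed values do not settle whether the numbers pair. With the replicate block 16 rose and 4 fell against inosine, 11 rose and 5 fell against glucose, and 1 gene in all was called between inosine and glucose. Of the 42 genes, the replicate block brought Ctss (adjusted p = 0.0162), Tfeb (0.0159), Neu1 (0.033) and Gabarapl1 (0.0366) past the threshold against inosine, and Ctss (0.00664), Tfeb (0.0128) and Gusb (0.0411) against glucose, where Hexa fell short of it (0.071). Tfeb also passed with the replicate block and only the 2 media compared (0.0314 against inosine, 0.0456 against glucose), Ctss against glucose (0.0481) and Tfe3 against inosine (0.0419). With the replicate block and only the 2 media compared, calls over all genes numbered 2110 for hypoxanthine against glucose, with 2 falls among the 42 genes, and 0 for inosine against glucose. In that fit Ctsd (adjusted p = 0.0519), Neu1 (0.0769), Ctsa (0.0581), Ulk1 (0.0821), Mcoln1 (0.0901) and Hexa (0.214) fell short against glucose. Against inosine Ctsa (0.0562) and Glb1 (0.0543) fell short. Depth limits the low genes most, such as Ctsl and Wipi1 with means under 1 FPKM, and the log2(FPKM + 1) scale shrinks their differences.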
